A study of Mus musculus with 6 samples.

Results

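The expression of 10 genes that write, copy, remove or read DNA methylation was described in 6 mouse RNA sequencing libraries. The genes were chosen by name, as the rows of the deposited expression table with the symbols Dnmt1, Dnmt3a, Dnmt3b, Dnmt3l, Uhrf1, Tet1, Tet2, Tet3, Tdg and Mbd2, and all 10 were among the 24672 symbols kept from that table. The 3 libraries of differentiated female germ stem cells (Dif-FGSC) were set against 3 libraries of female germ stem cells (FGSC), a cell culture derived from the mouse ovary, in a series whose title asks about the start of meiosis under retinoic acid. Dif-FGSC had been moved onto inactivated granulosa cells in medium with 0.1 µmol/L retinoic acid, 10 ng/mL BMP4 and 10 ng/mL bFGF. FGSC were kept on inactivated STO fibroblasts with 10 ng/mL LIF, 20 ng/mL EGF, 10 ng/mL bFGF and 10 ng/mL GDNF. Both groups were C57BL/6 cells beyond passage 20, and both media were MEMα with 10% fetal bovine serum, nonessential amino acids, L-glutamine, pyruvate and mercaptoethanol. Retinoic acid, BMP4, the feeder cells and the other growth factors differed together, so their effects cannot be told apart. The deposited columns carry the prefixes dif and con, and con was read as control and hence as FGSC, which no label states; each direction below rests on that reading.

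In mammals a methyl group on cytosine sits mostly at CG dinucleotides. DNMT3A and DNMT3B place it on unmethylated DNA, helped in germ cells by the inactive relative DNMT3L, and DNMT1 copies it to the new strand after replication, guided by UHRF1. TET enzymes oxidise methylcytosine, the glycosylase TDG cuts out the more oxidised forms for repair, and MBD2 binds methylated CG sites and brings the NuRD chromatin remodelling complex to them. In the germ line of the embryo methylation is first lost and later laid down anew, and in mouse oocytes that second step depends on DNMT3A with DNMT3L.

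Steps between low values of the table implied 19.5 to 22.6 M (mega) fragments in Dif-FGSC libraries and 17.4 to 27.3 M in FGSC libraries. The markers gave little sign of the labelled cell type. Of 18 germ cell markers, 15 were below 0.1 FPKM (fragments per kilobase of transcript and M mapped fragments) in every library and 9 were listed at 0 in all 6, among them Dazl and Gfra1, and the list summed to 1.13 to 1.79 FPKM in Dif-FGSC libraries and 0.896 to 1.03 FPKM in FGSC libraries. An exact 0 in such a table may be an estimate that failed, since the widely used gene Amd1 was also listed at 0 in 2 libraries. Feeder markers were also low: 11 of 13 granulosa markers, summing to 0.498 to 0.707 FPKM in Dif-FGSC and 0.663 to 0.849 FPKM in FGSC libraries, and 10 of 13 fibroblast markers, summing to 0.552 to 0.662 FPKM in Dif-FGSC and 1.02 to 1.12 FPKM in FGSC libraries, were below 0.1 FPKM throughout. Of 18 mast and blood cell markers only 4 were below 0.1 FPKM in every library, and that list summed to 937 to 947 FPKM in Dif-FGSC libraries and 704 to 756 FPKM in FGSC libraries. Cpa3, which encodes a mast cell protease, Gata2, Laptm5, Kit and Spi1 carried most of this sum. The mast cell markers Fcer1a, Tpsab1, Ms4a2, Hdc and Mcpt4 did not exceed 0.0431, 0.0212, 0.1745, 0.149 and 0.309 FPKM. The protease genes Mcpt8 and Cma1 went the other way. Mcpt8 had 8.81, 8.68 and 7.15 FPKM in Dif-FGSC libraries, against at most 0.762 FPKM in FGSC libraries. Cma1 had 1.62, 0.841 and 1.25 FPKM in Dif-FGSC libraries, against at most 0.0527 FPKM in FGSC libraries. The group names below are therefore the labels of the libraries. The part of any of these cell types in the differences was not tested.

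All 10 genes had a value above 0 in every library, over a range from 39.9 FPKM for Mbd2 to 0.00308 FPKM for Tet1. As listed, the order in Dif-FGSC libraries was Mbd2, Dnmt1, Uhrf1, Dnmt3a, Tet3, Tdg, Dnmt3b, Tet2, Dnmt3l and Tet1. In FGSC libraries Tdg stood above Tet3 and the rest kept this order. These listed levels cannot be compared between genes as they stand, because a listed value appears from its decimals to be the mean over a gene's annotated transcripts. Of 4691 genes with 1 RefSeq transcript and a mean of at least 1 FPKM, 14 (0.298%) carried more than 6 significant digits, against 3494 of 4321 genes (80.9%) with 2 or more transcripts. Among 756 genes with 9 decimals and 3, 6, 7 or 9 transcripts, multiplying the value by the transcript number brought 735 (97.22%) to at most 7 digits. The share was 99.66% for 3 transcripts, 100% for 6, 73.77% for 7 and 85.71% for 9. Multiplying by 1 more than that number brought 0, but this is no separate check, since such a recurring decimal still recurs afterwards. A multiple of the true divisor would pass as well. Genes with 2, 4 or 5 transcripts, such as Mbd2, Uhrf1 and Dnmt1, were outside this check. On that reading a gene with many annotated transcripts is listed lower than its transcripts' sum, and the members had from 1 transcript (Tet1) to 9 (Dnmt3b).

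Summed over transcripts, the maintenance enzyme Dnmt1 was the highest of the 10 genes in both groups. Its sum was 88.3 to 91.8 FPKM in Dif-FGSC libraries and 80.1 to 83.6 FPKM in FGSC libraries, with 5 transcripts. Mbd2, with 2 transcripts, summed to 76.5 ± 1.30 FPKM in Dif-FGSC and 78.6 ± 1.63 FPKM in FGSC (SD, n = 3 each), below Dnmt1 in every library. The margin was small in the first FGSC library, at 79.8 FPKM for Mbd2 and 80.1 FPKM for Dnmt1. This order rests on transcript numbers that the check of recurring decimals did not cover. Uhrf1, with 4 transcripts, summed to 69.4 ± 0.735 FPKM in Dif-FGSC and 57.0 ± 0.999 FPKM in FGSC. Dnmt3a came next at 23.5 ± 0.429 FPKM in Dif-FGSC and 16.1 ± 0.599 FPKM in FGSC. Dnmt3b and Tdg were neighbours that did not separate in Dif-FGSC, where Dnmt3b summed to 12.3 ± 0.306 FPKM and Tdg to 12.3 ± 0.523 FPKM. In FGSC Dnmt3b summed to 12.4 ± 0.515 FPKM and Tdg to 10.5 ± 0.329 FPKM. Tet3 followed at 8.98 ± 0.237 FPKM in Dif-FGSC and 5.19 ± 0.198 FPKM in FGSC, then Tet2 at 2.48 ± 0.158 FPKM in Dif-FGSC and 2.42 ± 0.173 FPKM in FGSC. Dnmt3l at 0.700 ± 0.167 FPKM in Dif-FGSC and 0.835 ± 0.312 FPKM in FGSC, and Tet1, which has 1 transcript, were last on both scales. By summed RNA, Dnmt1 led the methyltransferases, Dnmt3a was the higher of the active de novo enzymes and Tet3 led the TET family. Transcript-number scaling changes a gene's level but not the ratio of its groups, and the values below are as listed unless said otherwise.

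**Figure D1:**
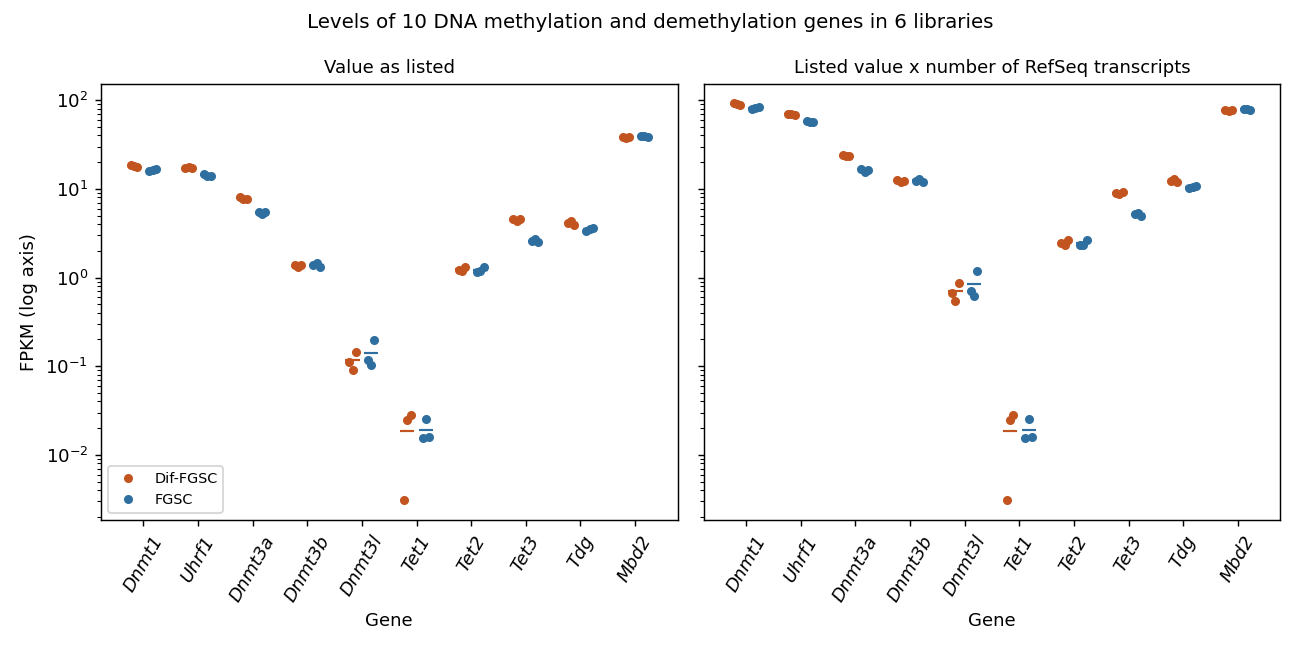
FPKM of the 10 genes in each library on a log axis, as listed (left) and multiplied by the number of RefSeq transcripts (right). Points are libraries, orange for Dif-FGSC and blue for FGSC, and short lines are group means; Mbd2 is highest as listed and Dnmt1 after multiplication, while Dnmt3l and Tet1 are lowest on both.

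The 250 bases before the annotated starts were read from RefSeq promoters (build GRCm38.p6, which is not the mm9 build named for the deposited values). Of the 10 genes 9 matched, with 16 annotated starts, and Mbd2 is named only. Shown are windows of Dnmt3a and Tet3, the 2 genes with the largest differences, and of Tet2, the relative of Tet3 that was not called. Each lies before the first start that the promoter table holds for its gene and overlaps no exon of that gene in the GENCODE annotation, while RefSeq's gene span begins farther upstream, by 5421 bases for Dnmt3a, 746 for Tet2 and 15530 for Tet3. Capitals mark CG dinucleotides, the sites these enzymes act on. The windows are chr12:3806730-3806979 (plus strand) for Dnmt3a, chr3:133544391-133544640 (minus) for Tet2 and chr6:83441679-83441928 (minus) for Tet3.
Dnmt3a: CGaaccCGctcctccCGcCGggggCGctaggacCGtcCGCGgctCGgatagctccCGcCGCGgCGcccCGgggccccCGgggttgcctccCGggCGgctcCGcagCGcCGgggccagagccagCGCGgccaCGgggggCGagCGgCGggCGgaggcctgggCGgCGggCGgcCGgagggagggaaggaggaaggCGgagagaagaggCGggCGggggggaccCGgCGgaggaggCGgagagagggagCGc
Tet2: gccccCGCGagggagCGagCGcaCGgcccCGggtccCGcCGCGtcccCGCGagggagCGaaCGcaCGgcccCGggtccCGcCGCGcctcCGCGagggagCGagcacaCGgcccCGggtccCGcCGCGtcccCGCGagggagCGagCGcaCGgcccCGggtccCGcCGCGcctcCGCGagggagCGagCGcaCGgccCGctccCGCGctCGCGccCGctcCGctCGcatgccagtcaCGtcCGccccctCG
Tet3: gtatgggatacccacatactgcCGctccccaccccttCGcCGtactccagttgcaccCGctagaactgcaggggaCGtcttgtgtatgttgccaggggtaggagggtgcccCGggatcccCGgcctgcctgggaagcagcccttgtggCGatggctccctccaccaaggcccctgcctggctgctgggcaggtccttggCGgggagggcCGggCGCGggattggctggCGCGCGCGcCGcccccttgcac
Across 32851 RefSeq windows of this length the median was 6 CG sites, with quartiles of 2 and 16. The Tet2 window held 51, more than 99.93% of windows, and the Dnmt3a window 38, more than 98.12%. The Tet3 window held 17. Before the first listed start of the other relatives, Dnmt3b held 21 and Tet1 15. That of Dnmt3l held 5 and stood below the median, as did the windows of its other starts with 4 and 3. The Tet1 window, with its 15 sites, lies before a gene at no more than 0.0281 FPKM on either scale. The CG-richest window, that of Tet2, lies before one that summed over transcripts to 2.48 FPKM in Dif-FGSC and 2.42 FPKM in FGSC. A link between CG sites and level was not tested.

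A 7-letter E2F-type core was also searched on both strands of these windows, as TTCCCGC or the same letters with G in place of C at the third base, the fourth base or both. Each form contains a CG site and may overlap another core. It was found in 7.887% of all windows and in 3 of the 16 windows of these genes. The 3 were a Dnmt1 window with 26 CG sites at chr9:20952624-20952873, which held 2 cores, and both Uhrf1 windows, at chr17:56303087-56303336 and chr17:56304063-56304312, with 1 core each. The Dnmt1 window and the first Uhrf1 window overlap annotated exons of their own genes, while the second Uhrf1 window does not. RefSeq's gene span begins 7265 bases upstream of this Dnmt1 start and 976 bases upstream of the second Uhrf1 start. A match is a description of these letters only.

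Of the 10 genes, 8 reached the mean of 1 FPKM required for testing, in both groups, and Dnmt3l and Tet1 did not. Between Dif-FGSC and FGSC, limma on log2(FPKM + 1) called 5 of the 8 at a Benjamini-Hochberg adjusted p under 0.05, all higher in Dif-FGSC, namely Tet3, Dnmt3a, Uhrf1, Tdg and Dnmt1. Of all 9162 genes tested 65.1% were called, 36.5% higher and 28.6% lower in Dif-FGSC, so a count of 5 called is close to the share of all genes, while the direction of all 5 was higher. Over all genes 2793 were called higher and 3182 lower after quantile normalization, and 3061 higher and 2960 lower after median-ratio scaling. The groups of these same 5 genes did not overlap, which held for 70.7% of all tested genes. The median log2 difference of the 8 tested genes was 0.16, against 0.03 over all tested genes. Log2 differences of single genes are of FPKM + 1, while their folds are ratios of mean FPKM. The log2 value beside a fold is therefore not the log2 of that fold, and it is smaller for genes at low FPKM. In bulk RNA of this kind, a lower value from fewer cells of a type and one from less RNA per cell cannot be told apart. The labels do not state that the 3 libraries of a group were separate cultures. A p-value here therefore reflects only library-to-library spread, perhaps technical. An exact permutation test of 3 libraries against 3 cannot give a p below 0.1, and each of the 5 called genes reached that p = 0.1 (two-sided).

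**Figure D2:**
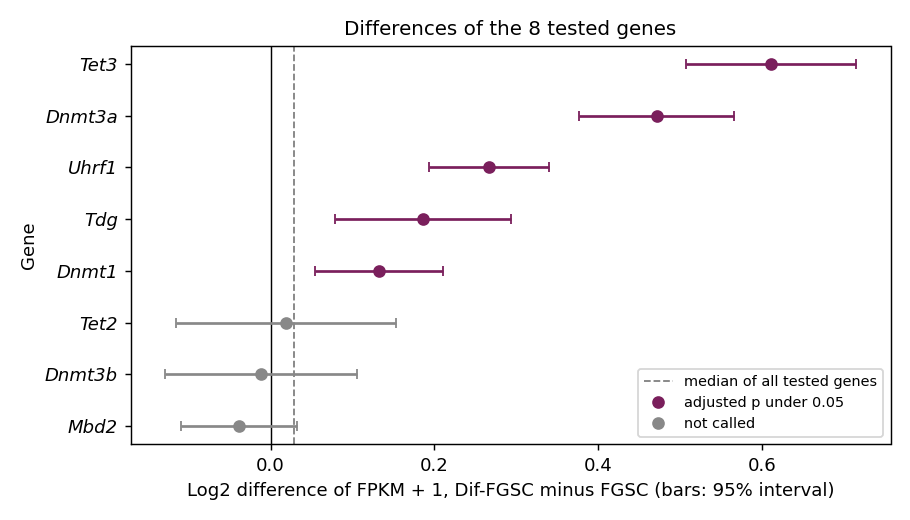
Log2 difference of FPKM + 1, Dif-FGSC minus FGSC, of the 8 tested genes, with the 95% interval from the limma fit as bars. Tet3 and Dnmt3a lie farthest to the right, the intervals of Tet2, Dnmt3b and Mbd2 include 0, and the dashed line is the median of all tested genes at 0.03.

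Both genes of maintenance methylation were higher in Dif-FGSC. Dnmt1, the enzyme that copies methylation onto the new DNA strand, had 18.4, 17.9 and 17.7 FPKM in Dif-FGSC libraries, against 16.0, 16.2 and 16.7 FPKM in FGSC libraries. The groups did not overlap, although the lowest Dif-FGSC library was less than 1 FPKM above the highest FGSC library. The means were 17.98 ± 0.348 FPKM in Dif-FGSC and 16.3 ± 0.360 FPKM in FGSC (SD, n = 3 each), a 1.102-fold difference (log2 0.13 ± 0.03 SE, limma adjusted p = 0.00928). After quantile normalization the log2 difference of Dnmt1 was 0.05 and was not called (limma adjusted p = 0.213). Uhrf1, which recognises hemimethylated DNA and recruits DNMT1, had 17.4, 17.5 and 17.2 FPKM in Dif-FGSC libraries, against 14.5, 14.1 and 14.1 FPKM in FGSC libraries. Every Dif-FGSC library stood clear of every FGSC library. The difference was 1.22-fold (log2 0.27 ± 0.03 SE, limma adjusted p = 0.00021). Uhrf1 exceeded 76.66% of all tested genes in its log2 difference and Dnmt1 exceeded 63.39%.

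Of the de novo methyltransferases Dnmt3a rose and Dnmt3b was not called. Dnmt3a, the enzyme of de novo methylation in oocytes and in many somatic cells, had 8.001, 7.74 and 7.76 FPKM in Dif-FGSC libraries, against 5.51, 5.15 and 5.47 FPKM in FGSC libraries. The lowest Dif-FGSC library was more than 2 FPKM above the highest FGSC library. The means, 7.84 ± 0.143 FPKM in Dif-FGSC and 5.37 ± 0.200 FPKM in FGSC (SD, n = 3 each), differed 1.46-fold on the FPKM scale (log2 0.47 ± 0.04 SE on log2(FPKM + 1), limma adjusted p = 4.21e-05). Dnmt3b, the paralog known for pericentromeric repeats and for the early embryo, had 1.39, 1.32 and 1.37 FPKM in Dif-FGSC libraries, against 1.37, 1.44 and 1.33 FPKM in FGSC libraries. The groups overlapped fully, and the log2 difference was -0.01, with a 95% interval from -0.13 to 0.11 (limma adjusted p = 0.848). Dnmt3l, the catalytically inactive partner needed for methylation in germ cells, was under the filter at 0.113, 0.0910 and 0.146 FPKM in Dif-FGSC libraries, against 0.117, 0.102 and 0.198 FPKM in FGSC libraries. Multiplied by its 6 transcripts, these values gave an estimated 27.8, 19.4 and 31.5 fragments in Dif-FGSC libraries. In FGSC libraries they gave 34.8, 24.4 and 37.6, and all 6 libraries were above the floor of 3 fragments. The margin rests on that multiplication. As listed, the second Dif-FGSC library at 0.0910 FPKM was near its floor of 0.0844 FPKM. The groups of Dnmt3l overlapped (exact permutation p = 0.6, two-sided).

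The oxidising enzymes differed among themselves. Tet3, the TET enzyme of the oocyte and zygote, had 4.51, 4.36 and 4.60 FPKM in Dif-FGSC libraries, against 2.61, 2.68 and 2.49 FPKM in FGSC libraries. No library of the groups came near the other group, and the spread within each group was at most 0.118 FPKM (SD). The difference was 1.73-fold on the FPKM scale (log2 0.61 ± 0.04 SE on log2(FPKM + 1), limma adjusted p = 1.89e-05) and larger than that of 93.72% of tested genes. Summed over its 2 transcripts the log2 difference of Tet3 was 0.69. Tet2, the family member best known from blood cells, had 1.22, 1.17 and 1.33 FPKM in Dif-FGSC libraries, against 1.15, 1.17 and 1.31 FPKM in FGSC libraries. The groups overlapped, and the log2 difference was 0.02 with a 95% interval from -0.12 to 0.15 (limma adjusted p = 0.787). Tet1, the family member of pluripotent and primordial germ cells, was listed at 0.00308, 0.0248 and 0.0281 FPKM in Dif-FGSC libraries, against 0.0153, 0.0254 and 0.0160 FPKM in FGSC libraries. These values correspond to an estimated 0.999, 6.96 and 7.97 fragments in Dif-FGSC libraries and 5.99, 8.01 and 3.99 in FGSC libraries, so the first Dif-FGSC library was under the floor of 3 fragments. At this depth a difference in Tet1 was not detectable (exact permutation p = 0.9, two-sided).

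Tdg, the glycosylase that removes the oxidised bases made by TET enzymes, had 4.08, 4.30 and 3.96 FPKM in Dif-FGSC libraries, against 3.37, 3.51 and 3.59 FPKM in FGSC libraries. The groups did not overlap. The difference was 1.18-fold on the FPKM scale (log2 0.19 ± 0.05 SE on log2(FPKM + 1), limma adjusted p = 0.00865). After quantile normalization the log2 difference of Tdg was 0.09 and was not called (limma adjusted p = 0.126). Mbd2, the methyl-CG reader, had 38.8, 37.5 and 38.4 FPKM in Dif-FGSC libraries, against 39.9, 39.6 and 38.4 FPKM in FGSC libraries. The groups overlapped, with a log2 difference of -0.04 and a 95% interval from -0.11 to 0.03 (limma adjusted p = 0.287). Mbd3, whose protein takes the same place as MBD2 in NuRD but binds methylated DNA poorly, had 65.7, 67.3 and 61.7 FPKM in Dif-FGSC libraries, against 51.4, 52.3 and 52.7 FPKM in FGSC libraries. Its groups did not overlap, and it rose (log2 0.31 ± 0.04 SE, limma adjusted p = 0.000231).

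Within each enzyme family these differences shifted the make-up. Summed over transcripts, Tet3 made up 78.2 ± 0.720% of all Tet RNA in Dif-FGSC and 68.0 ± 2.29% in FGSC (SD, n = 3 each). Tet2 made up 21.6 ± 0.661% in Dif-FGSC and 31.8 ± 2.32% in FGSC, and Tet1 at most 0.329% in any library. The summed Tet RNA was 11.5 ± 0.390 FPKM in Dif-FGSC and 7.63 ± 0.0938 FPKM in FGSC. Dnmt3a made up 18.6 ± 0.0513% of methyltransferase RNA in Dif-FGSC and 14.5 ± 0.519% in FGSC. The shares of Dnmt1 were 71.1 ± 0.384% in Dif-FGSC and 73.5 ± 0.440% in FGSC, and those of Dnmt3b were 9.70 ± 0.200% in Dif-FGSC and 11.2 ± 0.618% in FGSC, so both were smaller parts of a larger sum. That sum was 126.3 ± 2.25 FPKM in Dif-FGSC and 110.9 ± 1.89 FPKM in FGSC.

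**Figure D3:**
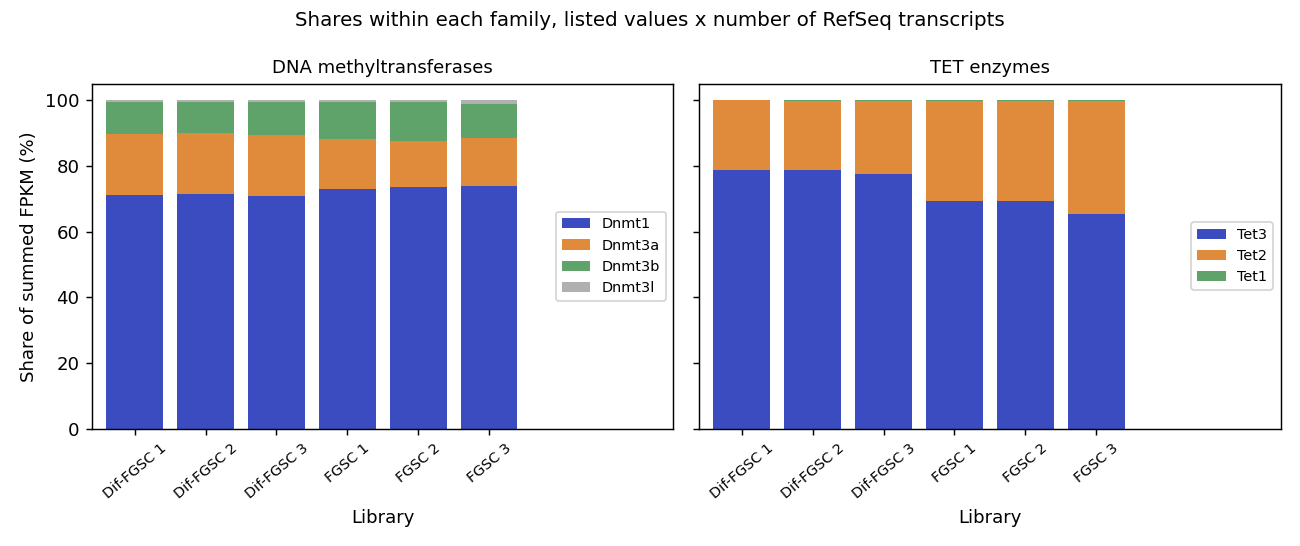
Shares of each gene in the summed FPKM of its family (%), for each library, with listed values multiplied by the number of RefSeq transcripts. In all 3 Dif-FGSC libraries Tet3 holds at least 77.41% of Tet RNA, against at most 69.4% in FGSC libraries, and the Dnmt3a segment is larger in Dif-FGSC libraries.

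Ratios of genes within a library do not depend on a scaling factor applied to the whole library, and 8 were computed. They were not computed after quantile normalization. They are given as listed unless said otherwise, so where transcript numbers differ between genes the size of a ratio depends on those numbers. The ratio of Tet3 to Tet2 was 3.69, 3.72 and 3.46 in Dif-FGSC libraries, against 2.27, 2.29 and 1.90 in FGSC libraries. The ratio of Dnmt3a to Dnmt3b was 5.77, 5.85 and 5.65 in Dif-FGSC libraries, against 4.01, 3.57 and 4.12 in FGSC libraries. With transcripts summed it was 1.92, 1.95 and 1.88 in Dif-FGSC libraries, against 1.34, 1.19 and 1.37 in FGSC libraries. As listed, the ratio of Dnmt3a to Dnmt1 was 0.436, 0.432 and 0.439 in Dif-FGSC libraries, against 0.344, 0.318 and 0.327 in FGSC libraries. With transcripts summed it was 0.262, 0.259 and 0.264 in Dif-FGSC libraries, against 0.206, 0.191 and 0.196 in FGSC libraries. These 3 ratios were higher in each Dif-FGSC library than in any FGSC library, by 1.69-fold, 1.48-fold and 1.32-fold. The ratio of Uhrf1 to Dnmt1 was 0.947, 0.978 and 0.971 in Dif-FGSC libraries, against 0.907, 0.873 and 0.843 in FGSC libraries. The ratio of Mbd2 to Mbd3 was 0.591, 0.557 and 0.622 in Dif-FGSC libraries, against 0.776, 0.757 and 0.729 in FGSC libraries. Summed Tet over summed Dnmt1, Dnmt3a and Dnmt3b was 0.207, 0.206 and 0.222 in Dif-FGSC libraries, against 0.165, 0.1704 and 0.162 in FGSC libraries, 1.28-fold as listed and 1.32-fold with transcripts summed. The groups of these 3 did not overlap either, with the Mbd2 to Mbd3 ratio lower in Dif-FGSC. Each of the 6 non-overlapping ratios gave the smallest exact permutation p of 0.1 (0.133 after Benjamini-Hochberg adjustment over 8 ratios), so none passed a threshold of 0.05. Each of the 6 holds a gene whose own groups did not overlap, as held for 70.7% of all tested genes. The share over ratios of other genes was not computed. The ratio of Tdg to Tet2 overlapped between the groups, at 2.98 to 3.67 in Dif-FGSC and 2.74 to 3.001 in FGSC (exact permutation p = 0.2), and that of Tet1 to Tet2 (exact permutation p = 0.8) rested on a few fragments and changed sign without the first Dif-FGSC library, with log2 differences of -0.55 over all libraries and 0.48 without it.

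**Figure D4:**
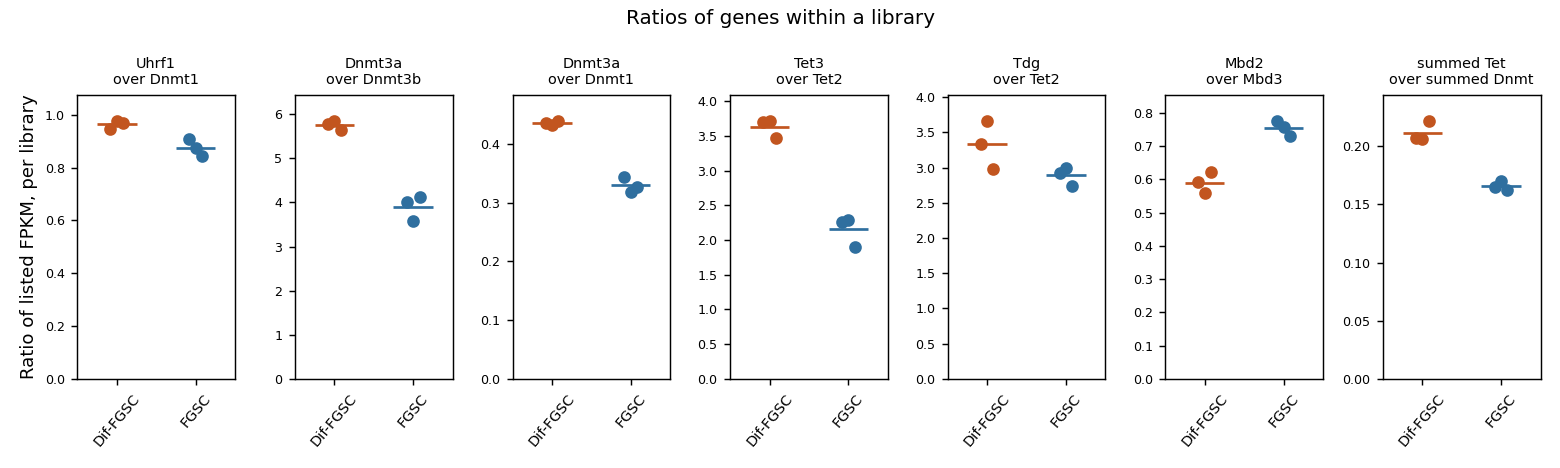
Ratios of listed FPKM within each library, each axis starting at 0. Points are libraries (orange Dif-FGSC, blue FGSC) and lines are means; of the ratios shown, the groups overlap only for Tdg over Tet2, and Mbd2 over Mbd3 is the one that is lower in Dif-FGSC.

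The partners of these enzymes were taken from 8 lists and read against the 36.5% of tested genes called higher and 28.6% called lower. Of 14 tested maintenance partners 6 were higher and 5 lower in Dif-FGSC (median log2 difference -0.06, against 0.03 over all tested genes). Among them Lig1, the replicative DNA ligase, rose to 19.1 ± 0.638 FPKM in Dif-FGSC, against 15.3 ± 0.131 FPKM in FGSC. Rb1, the retinoblastoma protein, rose to 8.82 ± 0.0292 FPKM in Dif-FGSC, against 5.57 ± 0.258 FPKM in FGSC, and Setd7, a lysine methyltransferase that acts on DNMT1, to 18.9 ± 0.177 FPKM in Dif-FGSC, against 12.2 ± 0.937 FPKM in FGSC. Other partners moved the opposite way. Hells, the remodeller LSH needed for methylation of repeats, fell to 42.4 ± 0.465 FPKM in Dif-FGSC, against 60.7 ± 2.22 FPKM in FGSC (log2 -0.51 ± 0.03 SE, limma adjusted p = 1.24e-05). Pcna, the replication clamp that DNMT1 binds, fell to 232.1 ± 3.91 FPKM in Dif-FGSC, against 315.4 ± 5.96 FPKM in FGSC, and Pclaf, a PCNA-binding protein, to 85.6 ± 1.91 FPKM in Dif-FGSC, against 104.3 ± 6.61 FPKM in FGSC. Of 33 DNA replication genes, all tested, 8 were higher and 15 lower in Dif-FGSC (median -0.12), so Dnmt1 and Uhrf1 were higher in libraries where more replication genes were lower than higher. The replication transcription factor E2f1 was among the 8, at 8.60 ± 0.485 FPKM in Dif-FGSC and 5.78 ± 0.0995 FPKM in FGSC.

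Among 14 tested partners of de novo methylation, 8 were higher and 3 lower in Dif-FGSC (median 0.16). Nsd1, which places the histone mark H3K36me2 that DNMT3A reads, rose to 20.1 ± 0.249 FPKM in Dif-FGSC, against 15.2 ± 0.167 FPKM in FGSC. Atf7ip, a partner of the histone methyltransferase SETDB1, rose to 16.3 ± 0.288 FPKM in Dif-FGSC, against 9.90 ± 0.426 FPKM in FGSC (log2 0.67 ± 0.04 SE, limma adjusted p = 7.5e-06). Setd2, which places H3K36me3, fell to 16.5 ± 0.481 FPKM in Dif-FGSC, against 18.5 ± 1.04 FPKM in FGSC, and Mphosph8, a subunit of the HUSH silencing complex, to 6.85 ± 0.0335 FPKM in Dif-FGSC, against 9.60 ± 0.703 FPKM in FGSC. Kdm1b, a histone demethylase required for methylation in oocytes, was counted among the 8 but was listed at 5.74, 5.61 and 0 FPKM in Dif-FGSC libraries and at 0 in all 3 FGSC libraries. It passed the filter through its Dif-FGSC level, and no fold is given for it.

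Some genes of the methyl-CG reader list and the ATPase of NuRD were higher in Dif-FGSC, and both NuRD deacetylases were lower. The reader list, which leaves out Mbd2, also held Cxxc1, Kdm2a and Kdm2b, whose proteins bind unmethylated CG sites. Of its 10 tested genes, 5 were higher and 1 lower in Dif-FGSC (median 0.14), but 3 were higher and 2 lower after quantile normalization. Cxxc1 and Mbd3 were among the 5, so the counts do not describe readers of methylated CG sites alone. The zinc finger reader Zbtb38 stood at 4.56 ± 0.156 FPKM in Dif-FGSC and 2.78 ± 0.377 FPKM in FGSC. The lower one was Mbd4, a glycosylase for mismatched thymine at CG sites, with 2.82 ± 0.0918 FPKM in Dif-FGSC and 3.80 ± 0.160 FPKM in FGSC. Of 13 tested NuRD subunits, 7 were higher and 3 lower (median 0.13), and 5 were lower after median-ratio scaling. Its ATPase Chd4 rose to 60.8 ± 0.712 FPKM in Dif-FGSC, against 39.6 ± 0.513 FPKM in FGSC (log2 0.61 ± 0.03 SE, limma adjusted p = 2.14e-06), together with the scaffold genes Mta1 at 32.7 ± 0.561 FPKM in Dif-FGSC and 20.2 ± 2.54 FPKM in FGSC, and Gatad2a at 17.8 ± 0.234 FPKM in Dif-FGSC and 11.8 ± 0.556 FPKM in FGSC. Both deacetylases of NuRD were lower in Dif-FGSC. Hdac1 had 48.6 ± 2.77 FPKM in Dif-FGSC and 55.8 ± 1.87 FPKM in FGSC (log2 -0.20 ± 0.05 SE, limma adjusted p = 0.00701), and Hdac2 had a log2 difference of -0.36 ± 0.03 SE (limma adjusted p = 3.72e-05).

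Of 17 tested TET partners, which included enzymes that make or use their cofactors, 4 were higher and 9 lower in Dif-FGSC (median -0.11). Idh2, the mitochondrial enzyme that makes the TET cosubstrate α-ketoglutarate, fell to 89.3 ± 3.13 FPKM in Dif-FGSC, against 147.6 ± 1.22 FPKM in FGSC (log2 -0.72 ± 0.03 SE, limma adjusted p = 1.96e-06). Its cytosolic relative Idh1 had 9.02, 8.22 and 9.71 FPKM in Dif-FGSC libraries, against 15.4, 15.8 and 27.7 FPKM in FGSC libraries. The last FGSC library was far above the other FGSC libraries for Idh1, while the groups did not overlap (limma adjusted p = 0.0031). Fh1, fumarate hydratase, which removes a TET inhibitor, fell to 67.0 ± 0.592 FPKM in Dif-FGSC, against 84.7 ± 1.21 FPKM in FGSC. The genes that rose included Slc23a2, a vitamin C transporter, with 4.63 ± 0.0599 FPKM in Dif-FGSC and 2.95 ± 0.0983 FPKM in FGSC, and Rest, a transcriptional repressor reported to bind TET3, with 10.1 ± 0.540 FPKM in Dif-FGSC and 5.60 ± 0.408 FPKM in FGSC.

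The base excision repair list held genes that act after TDG, but also other glycosylases, Apobec genes and the Gadd45 family. Of its 25 tested genes 6 were called higher and 12 lower (median -0.10), with 3 higher and 13 lower after quantile normalization. The counts therefore do not describe the steps after TDG alone. Of the Gadd45 family, stress-induced proteins linked to active demethylation, Gadd45a was higher and its relatives were lower. Gadd45a had 10.6 ± 0.164 FPKM in Dif-FGSC and 8.04 ± 0.438 FPKM in FGSC. Gadd45b had 5.39 ± 0.435 FPKM in Dif-FGSC and 9.41 ± 0.646 FPKM in FGSC (log2 -0.70 ± 0.07 SE, limma adjusted p = 6.56e-05), and Gadd45g had 11.1 ± 1.24 FPKM in Dif-FGSC and 17.1 ± 0.752 FPKM in FGSC. The glycosylase gene Neil3, which is counted among the 12 and passed the filter through its FGSC level, had 0.550, 0.791 and 1.05 FPKM in Dif-FGSC libraries, against 3.51, 2.41 and 2.81 FPKM in FGSC libraries. Of 18 tested genes of the methyl donor cycle, which makes S-adenosylmethionine, 4 were higher and 7 lower (median -0.0042). Of the 4, Ahcyl2, a relative of adenosylhomocysteinase, passed the filter through its Dif-FGSC level, at 1.98 ± 0.118 FPKM in Dif-FGSC and 0.709 ± 0.0183 FPKM in FGSC. Mtr, methionine synthase, had 14.3 ± 0.854 FPKM in Dif-FGSC and 12.2 ± 0.344 FPKM in FGSC, and Mthfd1, a folate enzyme, had 118.2 ± 0.650 FPKM in Dif-FGSC and 104.5 ± 2.79 FPKM in FGSC. Tyms, thymidylate synthase, was lower, at 15.2 ± 0.153 FPKM in Dif-FGSC and 19.4 ± 0.187 FPKM in FGSC.

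**Figure D5:**
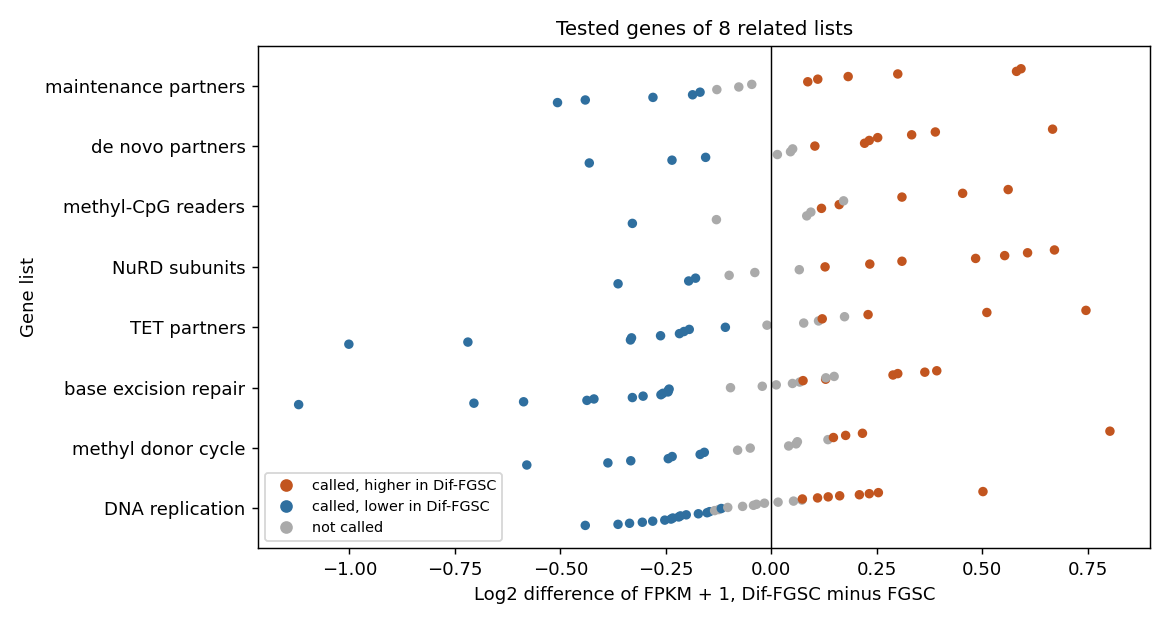
Log2 difference of FPKM + 1, Dif-FGSC minus FGSC, of each tested gene in 8 related lists. Orange points were called higher and blue points called lower in Dif-FGSC, grey points were not called; Kdm1b (listed at 0 in 4 libraries) and Amd1 (listed at 0 in 2 libraries) are left out of the plot but not of the counts.

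By likeness of pattern, measured as the Pearson correlation of log2(FPKM + 1) over the 6 libraries, the 2 tested genes nearest to Dnmt3a were Fam120a (0.9997) and Litaf (0.9995), those nearest to Uhrf1 were Dyrk1a (0.9996) and Prkaca (0.9995), and those nearest to Tet3 were Spata13 (0.9995) and Cand1 (0.9994). Symbols made of Gm and a number or ending in Rik were left out of the nearest genes and of the counts that follow. These patterns were common, since 501 of the genes compared correlated above 0.99 with Dnmt3a, 529 with Uhrf1 and 462 with Tet3. Dnmt1 was nearest to Dgkd (0.9972) and Cox6a2 (0.9969), Tdg to Tyk2 (0.9965) and Trak2 (0.9954), and Mbd2 to Alkbh2 (0.9968) and Fancd2 (0.9925). For Dnmt3b, nearest to Poc1b (0.9665) and Tbl3 (0.9578), and Tet2, nearest to Fchsd1 (0.975) and Armh3 (0.9733), none of the genes compared exceeded 0.99. The 6 points fall into 2 groups, so these values mostly describe the group difference.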

How the data were processed

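KAPA stranded mRNA libraries were made from Trizol-extracted RNA, per the labels' protocols. The authors deposited FPKM values per gene symbol. The submitters' processing notes name HISAT2 4.8.2, Cufflinks 2.2.1 and mm9; annotation and strand setting: not given in the sources used here, which leaves overlapping genes uncertain. Of 24674 rows, 24672 symbols were kept after 2 duplicated symbols were reduced to their higher row. limma 3.58.1 (R 4.3.3; lmFit, eBayes with trend) was fitted to log2(FPKM + 1) for 9162 genes with a mean of at least 1 FPKM and tested on simulated data; ± after a log2 difference is its standard error. Depth was estimated from steps of low values among 2947 genes, with 245 to 283 such values per library. Of these, 76.2% to 79.7% lay within 0.1 of a whole number at the depth chosen for that fit, so the percentage is no separate check. Fragments of a gene were estimated from this depth, the longest transcript and the listed value multiplied by transcript number. They cover counting error only. The members and lists were chosen with earlier results of these data known. Named were all 10 members, Mbd3, the 2 nearest genes of each tested member and, of each list, called genes among the 3 largest differences in each direction; markers and genes listed at 0 were chosen after their values were seen. Protein sequences were not used here. Some genes that this rule would name are not reported here. Alternatives were pseudocount 0.1, no filter, median-ratio scaling, quantile normalization, a replicate block, leaving out each library and, added after seeing the data, multiplying by transcript number.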

Additional observations from a re-analysis of the deposited data

How the results depend on the processing

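Of 96 member values under 12 alternative settings, 94 stayed on their side of the threshold. The exceptions were Dnmt1 and Tdg under quantile normalization, where 3 of the 10 genes were called in place of 5; the cause was not tested. The sign changed in 4 values, all of genes that were not called. These were Dnmt3b at 0.0065 without FGSC library 2 and 4.1e-05 without Dif-FGSC library 2, and Tet2 at -0.012 under quantile normalization and -0.0089 without Dif-FGSC library 3. Of 184 values of counts and ratios, 183 stayed within 1.5 times the count or within 1 SD of the log2 ratio, and the count of called genes was the exception. That SD was wide for Tet1 over Tet2, whose log2 difference of -0.55 was -0.041 with a pseudocount of 0.1 and between -1.06 and 0.48 with a library left out. Leaving out each library in turn left 5 called genes each time, with 5295 to 5963 called among all tested genes. Median-ratio scaling moved the median of all genes by -0.03 and quantile normalization by -0.08 (log2). The deviations of libraries sharing a column number from their group means had correlations of 0.131, 0.0123 and 0.174. Pairs with unlike numbers were not compared, so these values cannot tell whether libraries sharing a number also shared a batch or culture. With the number as a replicate block 5 members and 5798 genes in all were called. Depth limits Tet1 and Dnmt3l, and 3 libraries a group limit every exact test.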

Other observations

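Germline genes that are known to be silenced by promoter methylation in somatic mouse cells were mostly listed at or near 0 in these libraries, where an exact 0 may be a failed estimate. Of 24 such genes 23 were in the table, 19 of them were below 0.1 FPKM in every library and 13 were listed at 0 in all 6, among them Dazl. The exceptions differed in size and direction. Trap1a, an X-linked tumour antigen gene, had 248.5, 252.2 and 267.8 FPKM in Dif-FGSC libraries, against 313.3, 304.5 and 302.6 FPKM in FGSC libraries. Ddx43, a germline RNA helicase gene, had 5.95, 7.10 and 6.27 FPKM in Dif-FGSC libraries, against 7.34, 6.32 and 8.04 FPKM in FGSC libraries, where the groups overlapped. Sycp1, a gene of the synaptonemal complex, had 0.283, 0.326 and 0.323 FPKM in Dif-FGSC libraries, against 0.905, 0.810 and 0.585 FPKM in FGSC libraries. Taf7l, a germ cell transcription factor gene, had 0.160, 0.448 and 0.286 FPKM in Dif-FGSC libraries, against 0, 0.0944 and 0.0297 FPKM in FGSC libraries. For Trap1a, Sycp1 and Taf7l the groups did not overlap, as held for 70.7% of all tested genes, and Sycp1 and Taf7l were under the filter. DNA methylation itself was not measured in these libraries.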
